A study of Mus musculus with 2 samples.

Results

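The genes described here are 38 genes of cholesterol and fatty acid synthesis, followed in sorted cells of the mouse pylorus, the part of the stomach that opens into the intestine. They were chosen by name: a probe belonged to the set when the gene name given for it in the array files was 1 of the 38. The set holds 72 of the 41174 probes of the array, for 38 of 27727 genes. It comprises 5 regulators, 19 genes of the sterol arm and 14 genes of the fatty acid arm.

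Both arms are controlled by SREBP transcription factors, which are made as membrane proteins of the endoplasmic reticulum. The escort protein SCAP carries them to the Golgi apparatus for cleavage when sterols are scarce, while INSIG proteins hold SCAP back when sterols are plentiful. SREBP2, encoded by Srebf2, acts mainly on the mevalonate and cholesterol pathway, and SREBP1c, a product of Srebf1, mainly on fatty acid synthesis. Dividing and secreting epithelial cells need both products for their membranes.

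The strain was the Lgr5-EGFP-ires-CreERT2 knock-in, where green fluorescent protein (GFP) is made from the Lgr5 locus, so both populations carried the same allele and the sort followed the activity of that locus. Pyloric tissue of 20 stomachs from 20 mice was trypsinized and sorted by flow cytometry into cells with high GFP (GFPhigh) and cells with low GFP (GFPlow). The labels name no treatment or age. The labels describe 1 RNA pool per population, competing on a dye-swapped pair of Agilent mouse arrays. GFPhigh carried Cy3 on array 1 and Cy5 on array 2, so the 2 arrays are read with opposite dyes. The arrays are therefore repeat measurements of 1 replicate, their SD is technical, and no test between the populations was possible.

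Ratios are given on the log2 scale as GFPhigh over GFPlow, so that a negative value means a lower level in GFPhigh, for each array or as the mean ± SD of both. A gene was measured when, on each array, the population with more signal stood well above background, and was counted as higher or lower when it was at least 2-fold apart in the same direction on each. Because this filter lets a gene in through its brighter population, counts over all members are also given without it and over genes above background in both populations. Fewer cells of a type and less RNA per cell cannot be told apart in these pools.

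The share of gene spots well above background was 28.6% for GFPhigh and 25.1% for GFPlow on array 1, and 18.7% and 31.7% on array 2. Lgr5 was 4.86-fold higher in GFPhigh, at 2.33 on array 1 and 2.24 on array 2. The epithelial genes Epcam, Cdh1 and Krt18 were above background in both populations, at 0.12 ± 0.51, -0.16 ± 0.11 and 0.08 ± 0.69. So were the keratins Krt19 and Krt8, which had -2.24 ± 0.04 and -1.19 ± 0.98, and Krt19 passed 2-fold on each array. Of the pyloric markers, Gast was above background in both and Pdx1 in neither. The correlation of the arrays over the 9498 kept probes was 0.595, and the median ratio of the 7829 measured genes was -0.06.

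Few of the synthesis genes differed by 2-fold between the populations. Of the 38 genes, 33 were measured and 26 were above background in each population. Me1, a malic enzyme that supplies NADPH for fatty acid synthesis, was the 1 gene counted as lower in GFPhigh, and 0 were counted as higher. Among all measured genes 2.7% were counted as lower and 1.76% as higher, so 1 of 33 is near that background. At 1.5-fold on both arrays, 6 members were lower, against 7.5% of all measured genes, and 0 were higher, against 5.59%. The 6 were Hmgcs1, Idi1 and Fdps of the sterol arm, and Elovl6, Acsl5 and Me1 of the fatty acid arm. Without the filter, 1 of 38 members was lower at 2-fold and 6 at 1.5-fold, against 211 and 595 of 27676 genes. Among genes above background in both populations, 0 of 26 members were lower at 2-fold and 4 at 1.5-fold, against 139 and 378 of 6226 genes.

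More of the members lay on the low side of 0 than on the high side. Of the 33 measured members, 19 had a ratio below 0 on both arrays, 3 above 0 on both and 11 had opposite signs. The shares over all measured genes were 36.6%, 28.1% and 35.3%. Without the filter, 22 of 38 members were below 0 on both arrays, against 24.6% of 27676 genes. Among genes above background in both populations, 12 of 26 members were below 0 on both arrays, against 28.6% of 6226 genes. These counts describe 1 pair of RNA pools, and the members are not replicates of each other.

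**Figure D1:**
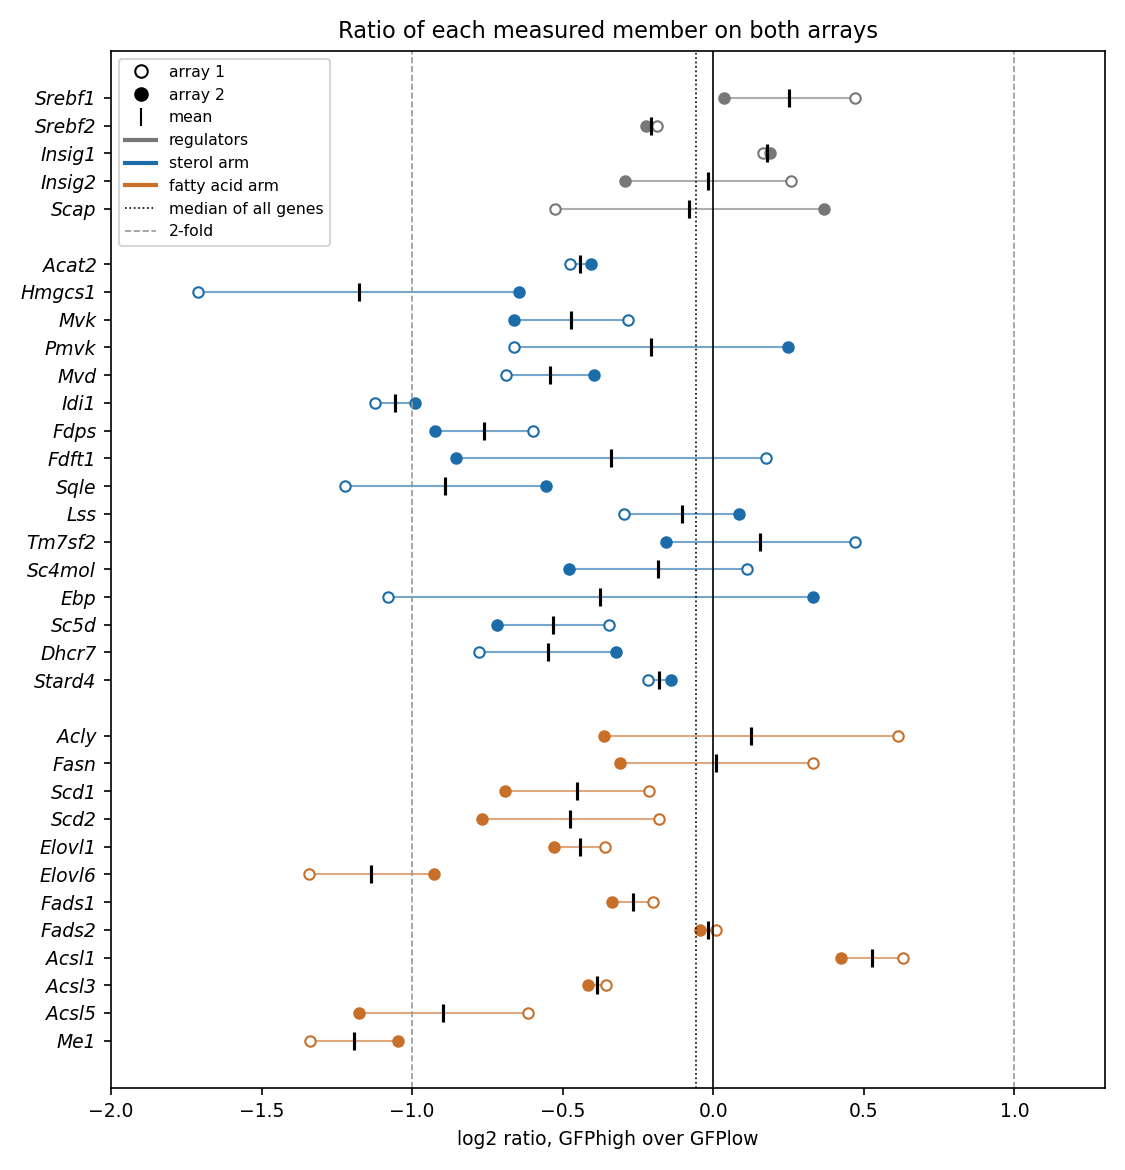
Log2 ratio of GFPhigh over GFPlow of the 33 measured members on array 1 (open circles) and array 2 (filled circles), with a bar at the mean; grey marks regulators, blue the sterol arm and orange the fatty acid arm, and dashed lines mark 2-fold. Points of Me1 lie left of the 2-fold line on both arrays, while Ebp, Hmgcs1, Fdft1, Acly and Pmvk differ widely between the arrays.

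Promoter sequences are shown for 6 members, to set genes with low, near-zero and high ratios side by side. RefSeq windows of build GRCm38.p6 were found for 31 of the 38 members, and the 250 bases before each start were searched on both strands. Fdps, Fdft1, Sqle, Stard4, Scd1, Scd2 and Fads1 were not matched. The sequences are given for Hmgcs1 and Idi1, the sterol genes with the lowest ratios, for Me1 and Elovl6, the fatty acid genes with the lowest ratios, for Fasn, whose mean ratio was 0.01, and for Acsl1, the member with the highest ratio. They lie at chr13:119690101-119690350 on the plus strand for Hmgcs1, chr13:8885356-8885605 on the plus strand for Idi1, chr9:86695915-86696164 on the minus strand for Me1, chr3:129532136-129532385 on the plus strand for Elovl6, chr11:120824548-120824797 on the minus strand for Fasn and chr8:46490716-46490965 on the plus strand for Acsl1. For Me1 this is the first of 2 windows in the table and for Acsl1 the second of 2. Each is written 5′ to 3′ along its gene, and capitals mark matches on either strand to the sterol regulatory element TCACNCCAC, its palindromic form TCANNTGA, the NF-Y box CCAAT and the GC box GGGCGG, with adjoining or overlapping matches run together.
Hmgcs1: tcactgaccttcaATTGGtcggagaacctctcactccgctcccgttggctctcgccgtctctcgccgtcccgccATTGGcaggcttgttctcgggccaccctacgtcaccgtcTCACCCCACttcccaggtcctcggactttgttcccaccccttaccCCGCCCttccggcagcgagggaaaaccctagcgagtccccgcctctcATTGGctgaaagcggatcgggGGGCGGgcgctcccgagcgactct
Idi1: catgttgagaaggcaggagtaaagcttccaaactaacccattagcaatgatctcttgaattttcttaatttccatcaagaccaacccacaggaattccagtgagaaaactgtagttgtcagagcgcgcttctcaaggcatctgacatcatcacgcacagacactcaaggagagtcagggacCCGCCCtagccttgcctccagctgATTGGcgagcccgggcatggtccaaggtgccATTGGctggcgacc
Me1: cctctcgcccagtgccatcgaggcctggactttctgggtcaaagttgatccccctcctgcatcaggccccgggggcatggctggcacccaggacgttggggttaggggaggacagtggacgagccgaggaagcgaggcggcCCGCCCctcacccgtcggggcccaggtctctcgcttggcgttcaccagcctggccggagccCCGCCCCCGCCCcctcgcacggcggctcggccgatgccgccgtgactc
Elovl6: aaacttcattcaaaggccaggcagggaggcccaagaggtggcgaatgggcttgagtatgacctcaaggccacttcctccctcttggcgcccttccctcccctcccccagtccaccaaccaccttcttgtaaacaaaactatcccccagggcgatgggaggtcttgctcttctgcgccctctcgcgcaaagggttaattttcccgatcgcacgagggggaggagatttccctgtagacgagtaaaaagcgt
Fasn: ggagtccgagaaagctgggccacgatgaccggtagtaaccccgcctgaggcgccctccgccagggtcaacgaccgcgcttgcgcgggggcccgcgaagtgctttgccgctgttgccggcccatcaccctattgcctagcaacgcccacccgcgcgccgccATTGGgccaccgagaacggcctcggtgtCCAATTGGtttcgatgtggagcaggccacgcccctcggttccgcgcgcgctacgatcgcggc
Acsl1: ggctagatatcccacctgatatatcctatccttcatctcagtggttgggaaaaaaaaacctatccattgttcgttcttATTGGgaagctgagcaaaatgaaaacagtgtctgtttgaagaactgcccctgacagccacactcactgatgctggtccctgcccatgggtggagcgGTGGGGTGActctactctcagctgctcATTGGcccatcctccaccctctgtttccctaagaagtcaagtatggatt

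Motifs were counted by gene, as a match in any of its windows. The sterol regulatory element, the sequence bound by SREBP, was found in 2 of the 31 members, Hmgcs1 and Acsl1. It was found in 1.29% of the 5880 measured genes with a window and in 1.22% of all 27025 genes with a window. The 2 members differed in direction, with Hmgcs1 lower and Acsl1 higher in GFPhigh on both arrays. The edge of the match nearer the start lay 129 bases from it in Hmgcs1 and 68 bases from it in Acsl1. The palindromic form was found in 1 member, Insig2, against 6.11% of measured genes and 8.11% of all genes with a window. The Acsl1 window shown above is the 1 of its 2 windows that holds the sterol element. Its first window, not shown, held 4 GC boxes and no other motif. The second window of Me1, not shown, held 1 NF-Y box and no other motif.

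The NF-Y box, bound by a factor that often acts beside SREBP, was found in 25 of 31 members, or 80.6%. The shares were 40.9% of measured genes and 37.5% of all genes with a window. The NF-Y box was found in 14 of 15 genes of the sterol arm and 7 of 11 of the fatty acid arm. The GC box, bound by Sp1, was also found in 25 of 31 members, with 14 of 15 in the sterol arm and 6 of 11 in the fatty acid arm. The shares for the GC box were 64.7% of measured genes and 35.4% of all genes with a window. Elovl6 held 0 matches to the 4 motifs in its window and was among the members with the lowest ratios. These matches are descriptions of letters in a window and say nothing of binding in these cells.

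The regulators showed small ratios of both signs, and 0 of 5 were counted in either direction. Srebf1 had a ratio of 0.47 on array 1 and 0.03 on array 2, with normalized log2 intensities of 12.58 and 12.28 in GFPhigh and 12.10 and 12.24 in GFPlow. Srebf2 had -0.19 and -0.22, from 10.84 and 10.80 in GFPhigh against 11.03 on each array in GFPlow. The mean differences were 1.15-fold for Srebf2 and 1.19-fold for Srebf1. The levels of neither gene overlapped between the populations, though those of Srebf1 came as near as 12.28 and 12.24. Overlap here compares 2 readings of 1 RNA pool per population, and its share over all measured genes was not counted. The other 2 kept probes of Srebf2 gave -0.32 and -0.27, on the same side.

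The 2 INSIG genes and Scap encode the sterol-sensing parts of the system. Insig1, itself a known SREBP target, had 0.17 and 0.19, a 1.13-fold difference opposite in sign to most of the sterol enzymes. Its other probe, not above background in either population, had -0.015 and -0.068. Insig2 had 0.26 on array 1 and -0.29 on array 2. Scap had -0.52 and 0.37. Both changed sign between the arrays, so no direction can be given for them.

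In the sterol arm, 16 of 19 genes were measured and 14 were above background in both populations. The median ratio was -0.46, with -0.54 on array 1 and -0.44 on array 2, and 15 of 16 means were below 0. On both arrays 10 genes were below 0 and 0 were above it, with opposite signs in the other 6. Over all 19 genes without the filter the median was -0.37, against 0.01 for all genes. For the 14 that were above background in each population it was -0.45, against 0.04.

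The first steps of the mevalonate pathway join acetyl-CoA units. Hmgcs1, the HMG-CoA synthase of the cytosol, had the lowest mean of the arm at -1.18 ± 0.75, or 2.26-fold lower in GFPhigh. Its log2 intensity was 9.72 and 10.30 in GFPhigh against 11.43 and 10.95 in GFPlow. The 2 readings of each population did not overlap, but the ratio was -1.71 on array 1 and -0.64 on array 2. The gene therefore passed 2-fold on array 1 alone. The probe lies at mm9 positions 114807 to 114866 of the unplaced sequence assigned to chromosome 13. Acat2, the thiolase of the cytosol, had -0.48 and -0.41 and was above background in GFPhigh on 1 array. A close copy of Acat2, the paralogue Acat3, lies beside it in the genome, and how far its RNA reached this probe was not tested.

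The kinases and the decarboxylase that turn mevalonate into isoprene units also had means below 0. Mvk, mevalonate kinase, had -0.28 and -0.66, and was above background in GFPhigh on 1 array. The second kept probe of Mvk had -0.07 and -0.59. Pmvk, phosphomevalonate kinase, had -0.66 and 0.25 by its brightest probe, while an adjoining probe had -0.74 and -0.96. These 2 probes of Pmvk lie end to end in the mm9 genome and disagree in sign on array 2, so its ratio is uncertain. Mvd, the decarboxylase, had -0.69 and -0.40, from 8.44 and 8.71 in GFPhigh against 9.13 and 9.11 in GFPlow.

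Idi1, the isomerase of the isoprene units, had nearly the same ratio on both arrays. Its log2 intensity was 8.09 and 8.14 in GFPhigh against 9.21 and 9.13 in GFPlow, which gave -1.12 and -0.99, or 2.08-fold lower in GFPhigh. It missed the 2-fold count on array 2 by a small margin. The array files place this probe at mm9 chr2:53553575-53553634, while RefSeq lists Idi1 on chromosome 13, as the window above shows, so its identity is uncertain. Fdps, farnesyl diphosphate synthase, had -0.60 and -0.92, from 9.01 and 8.81 in GFPhigh against 9.61 and 9.73 in GFPlow. Its dimmer second probe had -0.02 and 0.06, so the probes of Fdps did not show the same difference.

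Squalene is made by Fdft1 and oxidised by Sqle, the first step of the pathway that uses oxygen. Fdft1 had 0.18 and -0.86, with no shared sign. Sqle had -1.22 and -0.56, or 1.85-fold lower in GFPhigh, from 9.41 and 9.90 in GFPhigh against 10.63 and 10.46 in GFPlow. The 2 readings of each population did not overlap for Sqle. Its probe lies at mm9 chr15:59162384-59162443.

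After ring closure the ratios were smaller or differed between the arrays. Lss, lanosterol synthase, had -0.30 and 0.09. Tm7sf2, a sterol reductase, had 0.47 and -0.16 and was the 1 sterol gene with a mean above 0. Sc4mol, the sterol methyl oxidase now named Msmo1, had 0.11 and -0.48. All 3 changed sign between the arrays. Ebp, the sterol isomerase, had -1.08 and 0.33, the widest gap of any member, with 12.52 and 13.45 in GFPhigh against 13.60 and 13.12 in GFPlow.

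The last enzymes of cholesterol synthesis were lower in GFPhigh on both arrays by their kept probes. Sc5d, the sterol desaturase, had -0.35 and -0.72, and Dhcr7, the final reductase, had -0.78 and -0.32. These are differences of 1.45-fold and 1.46-fold in the mean. A dimmer second probe of Sc5d had 0.18 and 0.07, in the other direction. It was above background in each population on 1 array and was not kept. Stard4, a sterol carrier between membranes rather than an enzyme, had -0.22 and -0.14. The 3 genes stayed under 1.5-fold on at least 1 array each.

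**Figure D2:**
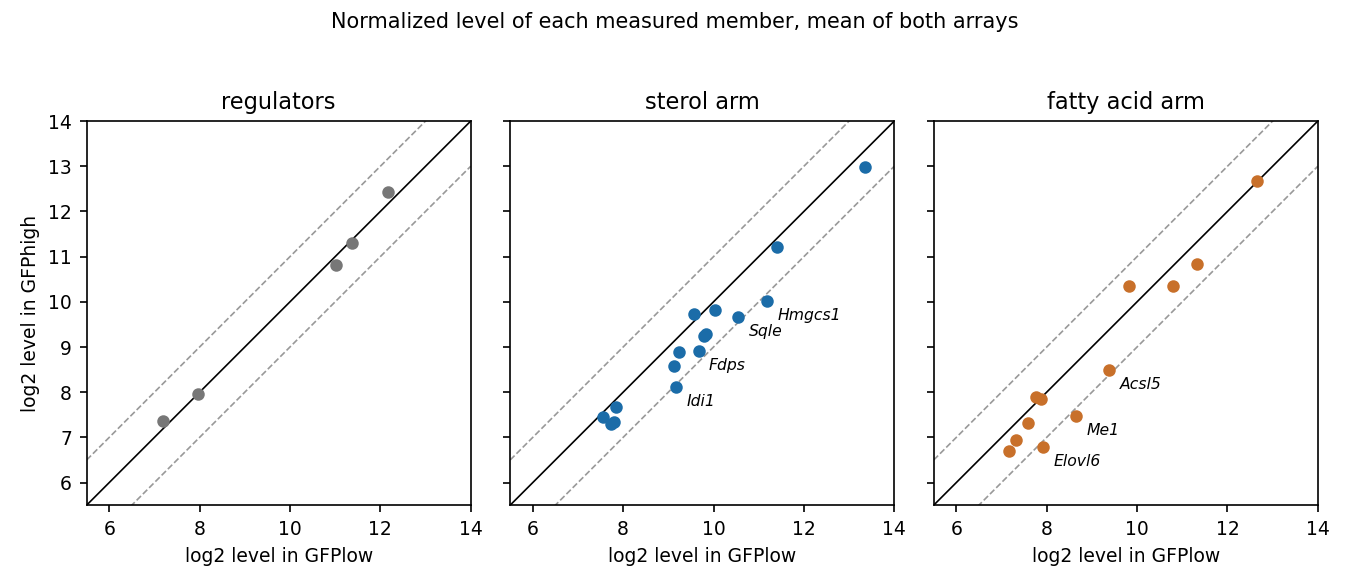
Normalized log2 intensity in GFPhigh (vertical axis) against GFPlow (horizontal axis) for the 33 measured members, as the mean of both arrays, in 1 panel each for regulators, sterol arm and fatty acid arm; the solid line marks equal levels and dashed lines 2-fold. Only the height of a point against the solid line can be read, since probes differ in brightness: Hmgcs1, Idi1, Me1 and Elovl6 lie below the lower dashed line and Acsl1, at 10.34 against 9.81, is the point farthest above the solid line.

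In the fatty acid arm, 12 of 14 genes were measured and 7 were above background in both populations. The median ratio was -0.41, with -0.21 on array 1 and -0.47 on array 2, and 9 of 12 means were below 0. On both arrays 8 genes were below 0, 1 was above it and 3 had opposite signs. Over all 14 genes without the filter the median was -0.33. For the 7 that were above background in each population it was -0.018, against 0.04 for all such genes, so the lower median of all 12 rested on the 5 that were not above background in GFPhigh on both of the arrays.

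The core of fatty acid synthesis did not differ in a fixed direction. Fasn, the fatty acid synthase, had 0.33 and -0.31, with a mean of 0.01 ± 0.45. Its log2 intensity was 12.91 and 12.43 in GFPhigh and 12.58 and 12.74 in GFPlow, so the populations overlapped. Acly, which makes cytosolic acetyl-CoA from citrate, had 0.61 and -0.36. Acaca, the acetyl-CoA carboxylase that commits acetyl-CoA to this path, was not well above background by any of its 5 probes.

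Me1 had a mean ratio of -1.19 ± 0.21, or 2.29-fold lower in GFPhigh, and cannot be ranked against Hmgcs1, whose mean is within the SD, or Elovl6, which has only a bound. Its log2 intensity was 7.33 and 7.60 in GFPhigh against 8.67 and 8.64 in GFPlow, with ratios of -1.34 and -1.05. It was above background in GFPhigh on 1 array and in GFPlow on both. The second kept probe of Me1 had -1.04 and -0.69, in the same direction but under 2-fold on array 2, so the count rests on the brighter probe. That probe lies at mm9 chr9:86475291-86475347.

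Elongases and desaturases shape the fatty acids that Fasn makes. Elovl6, which extends palmitate, had a log2 intensity of 6.61 and 6.96 in GFPhigh against 7.95 and 7.89 in GFPlow, and was not well above background in GFPhigh on either array. With the background as a floor, the bound from the mean levels was 2.16-fold lower in GFPhigh. This value was not a firm limit. The ratio was -1.34 on array 1 and -0.93 on array 2, and its mean was -0.75 without background correction. The probe lies at mm9 chr3:129341248-129341307. Elovl1, which extends very long chains, had -0.36 and -0.53.

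The desaturases had smaller ratios. Scd1 and Scd2, which make monounsaturated fatty acids, had means of -0.45 ± 0.34 and -0.47 ± 0.42. Scd1 was above background in GFPhigh on 1 array and Scd2 on both, and both genes were below 0 on both arrays. Fads1 and Fads2, which desaturate polyunsaturated fatty acids, had -0.27 ± 0.10 and -0.02 ± 0.04. Fads2 was near equal levels on each array, at 0.01 and -0.04.

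The acyl-CoA synthetases, which activate fatty acids for use, split by gene. Acsl1 was higher in GFPhigh on both arrays, at 0.63 and 0.42, from 10.36 and 10.32 in GFPhigh against 9.73 and 9.89 in GFPlow. This 1.44-fold difference was the largest above 0 of all members, and the 2 readings of each population did not overlap. However, with median or spike-in centring, which lowered the median of all genes, the ratio was -0.16 or -0.26. Acsl5 went the other way, at -0.62 and -1.18, from 8.58 and 8.39 in GFPhigh against 9.20 and 9.57 in GFPlow, or 1.86-fold lower in GFPhigh. Acsl3 was not well above background in GFPhigh on either array, and had -0.36 and -0.41. Its own level there was not below the floor, so its bound was only its mean difference, 1.31-fold lower in GFPhigh. The Acsl1 probe lies at mm9 chr8:47621232-47621291 and the Acsl5 probe spans mm9 chr19:55368743-55369331.

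Of the 38 members, 5 were not measured: Cyp51, Nsdhl and Hsd17b7 of the sterol arm, and Acaca and Elovl5 of the fatty acid arm. Cyp51 demethylates lanosterol, and Nsdhl and Hsd17b7 complete the removal of its methyl groups. Cyp51 had 3 probes, 2 of which were above background in GFPlow on 1 array. A gene that was not measured has no ratio here, which does not show that it was absent from the cells.

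Set against each other, the arms did not differ in a steady way. The sterol median minus the fatty acid median was -0.33 on array 1, 0.029 on array 2 and -0.043 in the mean of both, with an SD of 0.25 between the arrays. Its sign therefore depended on the array. It was also above 0 with the signals as Feature Extraction processed them, at 0.067, with the deposited value table, at 0.014, and with the dimmest kept probe of each gene, at 0.0064. Restricted to genes above background in both populations it was -0.44, from 14 sterol and 7 fatty acid genes.

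**Figure D3:**
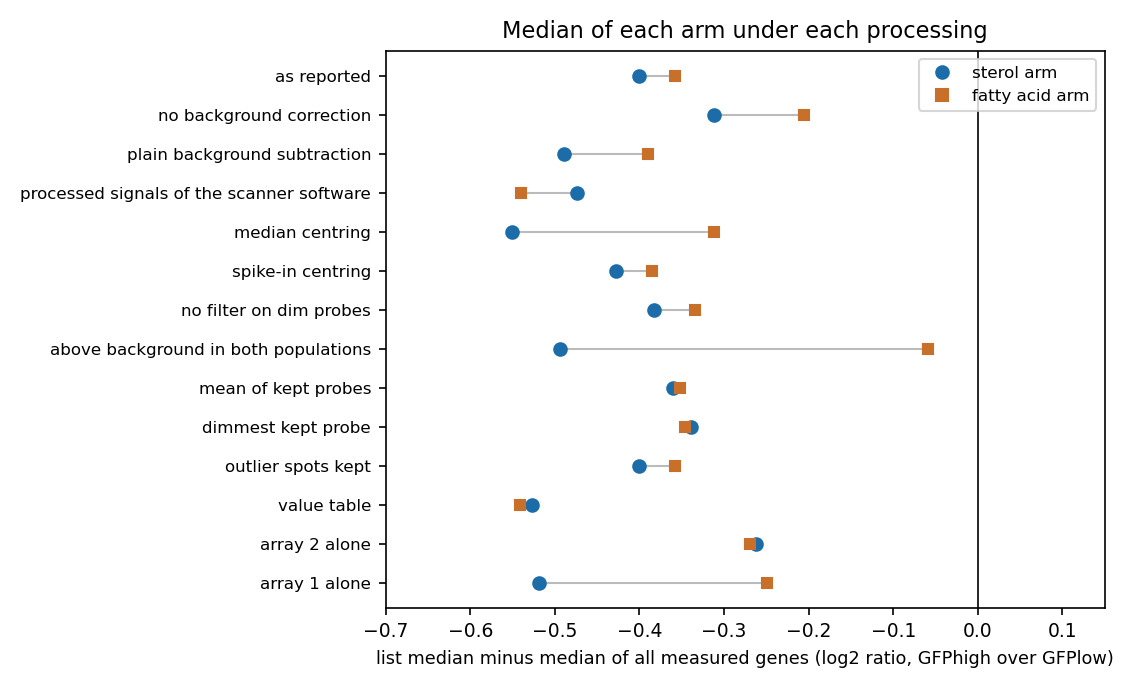
Median log2 ratio of the sterol arm (blue circles) and the fatty acid arm (orange squares) minus the median of all measured genes (horizontal axis), under each processing alternative (vertical axis). Both medians lie below 0 in every setting shown, the sterol arm between -0.55 and -0.26, and the fatty acid arm comes nearest to 0, at -0.06, when genes must be above background in both populations.

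Other genes of the sterol pathway had ratios of both signs, mostly under 2-fold. Of 20 such genes, 14 were measured, with a median of -0.21, and 1 was counted as lower in GFPhigh and 0 as higher, against 2.7% and 1.76% of all measured genes. That gene was Lbr, a sterol reductase that is also the lamin B receptor of the nuclear envelope, at -1.51 ± 0.35. Aacs, which makes acetoacetyl-CoA, had -0.79 ± 0.01. Erlin1, a protein of the endoplasmic reticulum, had 0.86 ± 0.34.

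Genes that take up, move, esterify or export cholesterol had a median above 0 on array 1 and near 0 on array 2. Of 22 genes, 10 were measured, with a median of 0.37 on array 1, 0.03 on array 2 and 0.26 in the mean. On both arrays 7 were above 0, against 28.1% of all measured genes. None was counted at 2-fold in either direction. Soat1, which esterifies cholesterol, had 1.84 and 0.60. Nr1h3, the nuclear receptor LXR alpha, had 0.51 ± 0.13, and Stard3, a carrier of endosomal cholesterol, had 0.50 ± 0.14. Abcg5, which exports sterols, had -0.70 ± 0.09 and was not well above background in GFPhigh.

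Of 33 other genes of fatty acid synthesis and elongation, 21 were measured, with a median of -0.18. Acot1, an acyl-CoA thioesterase, was counted as higher in GFPhigh at 1.69 ± 0.40, and 0 genes were counted as lower, against 1.76% and 2.7% of all measured genes. Acot1 belongs to a family of close copies, and whether their RNA reached this probe was not tested. Pgd, which like Me1 supplies NADPH, had -1.11 ± 0.18. Degs2, a sphingolipid desaturase, had 0.91 ± 0.42, and Acacb, the acetyl-CoA carboxylase attached to mitochondria, had 0.85 ± 0.20.

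Larger differences stood in the assembly of fatty acids into triglycerides and phospholipids. Of 24 genes, 17 were measured, with a median of 0.02, and 3 were counted as lower in GFPhigh and 0 as higher, against 2.7% and 1.76% of all measured genes. Dgat2, which makes triglycerides, had -2.05 ± 0.06. Mogat2, which makes diacylglycerol for the same path, had -2.12 ± 0.02 and was above background in GFPhigh on 1 array, and Agpat4 had -1.74 ± 0.32. Plin3, a lipid droplet coat protein, had 0.78 ± 0.26.

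Fatty acid oxidation showed no shared direction. Of 21 genes, 15 were measured and 15 were above background in both populations, with a median of -0.02 and 0 counted in either direction. On both arrays 4 were below 0 and 4 above it. Cpt2, of the mitochondrial carnitine shuttle, had -0.31 and -1.19, and Etfa, Acaa1a and Etfdh had means of -0.48, 0.42 and -0.38.

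**Figure D4:**
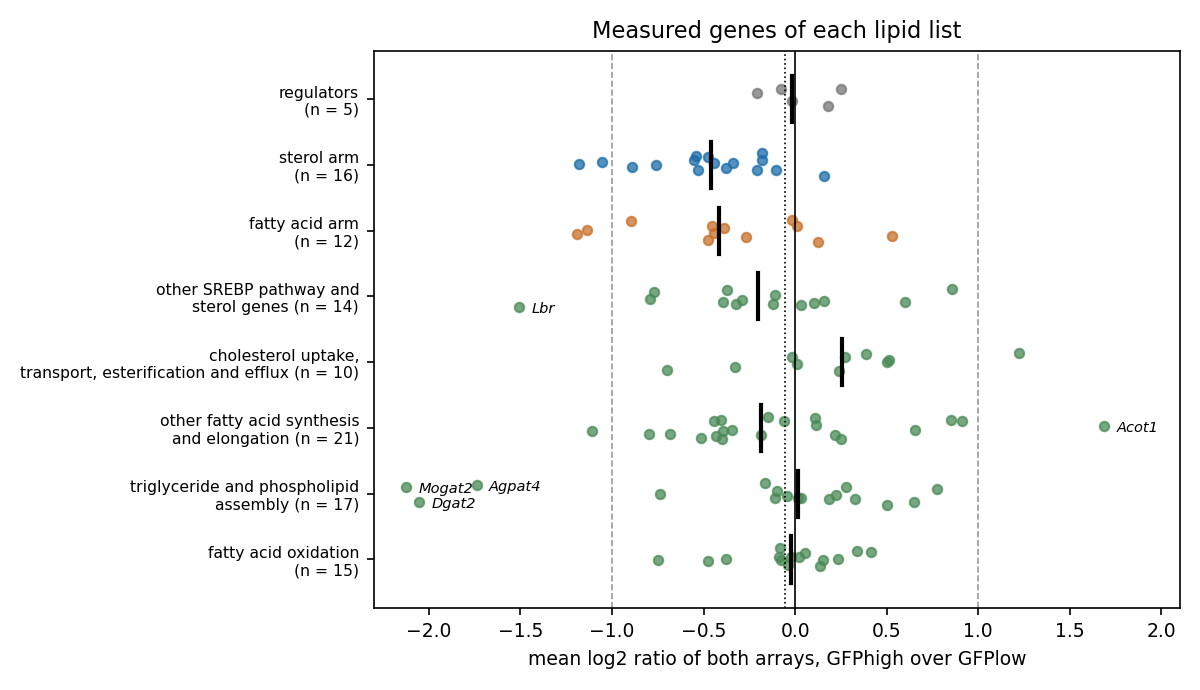
Mean log2 ratio of GFPhigh over GFPlow (horizontal axis) of each measured gene in the 3 member groups and the 5 other lipid lists; each point is a gene, thick bars are list medians, the dotted line is the median of all measured genes and dashed lines mark 2-fold. The 5 named points, farthest from 0, each passed 2-fold on both arrays, with Lbr, Mogat2, Dgat2 and Agpat4 lower and Acot1 higher in GFPhigh; Me1 of the fatty acid arm, not named in the plot, did so too.

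Markers of gastric cell types differed far more between the populations than the synthesis genes did. The 4 surface mucous markers were all counted as lower in GFPhigh, with a median of -2.77, and so were the 4 endocrine markers, with a median of -2.25. Of the 6 gland mucous and chief cell markers, 4 were counted as higher, with a median of 2.84. Of the 5 cycling markers, 4 were counted as lower, with a median of -1.74, and 3 passed background in GFPhigh on each array against 5 in GFPlow. The part of these shifts in the ratios of the synthesis genes was not tested.

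Markers of other tissues were mostly not measured. None of the 7 adipocyte, 6 leukocyte, 6 fibroblast and muscle, or 3 endothelial markers was measured. Of the 3 hepatocyte markers only Ttr was, at 0.41 ± 0.33. Of the 5 markers of squamous forestomach, Lor and Sbsn were measured, at 0.90 ± 0.10 and 0.73 ± 0.13.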

How the data were processed

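Per population, 150 ng of Trizol-extracted RNA went into linear amplification and labelling, per the labels' protocols. The authors deposited the scanner output of 2 arrays, with spot intensities per channel and the local background intensity, per the file headers. Feature Extraction is version 10.5.1.1 in the headers and 9.5.3 in the submitters' processing notes. A deposited table gives log10 ratios already turned to GFPhigh over GFPlow, with column medians of 0.0188 and -0.0458, and served as an alternative.

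Here limma 3.58.1 (R 4.3.3) subtracted the local background by normexp with an offset of 50. Loess then normalized each array, with control spots at weight 0. Ratios were turned by the dyes in the labels. Offset and normexp pull ratios of dim probes towards 0. Outlier spots were dropped (240 on array 1 and 251 on array 2), 0 gene spots were saturated, and spots of a probe were averaged. Each gene was represented by its brightest kept probe. Where GFPhigh was below background on both arrays, the bound sets the mean level in GFPlow against the mean of, per array, the higher of the lowest level well above background and the probe's own level, with channel levels after Aquantile.

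Symbols were updated through RefSeq (GRCm38.p6, names and promoter windows) for 33096 of 41174 probes, and the file's name was kept for 8078. Probe positions are those in the array files (mm9); exons and UTRs were not assigned. The steps were tested on simulated arrays.

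The members, lists and alternatives were chosen with earlier results of these data known. Of every other list, up to 4 measured genes with the largest mean ratios in size were named, except that an item of the sterol list is not reported here by name, and marker values beyond their lists' medians are checks. Alternatives covered background correction, signals, centring, filter, probe rule, outlier spots, threshold, the deposited table, members left out and each array alone. The number of arrays and RNA pools limits the precision.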

Additional observations from a re-analysis of the deposited data

How the results depend on the processing

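Relative to the median of all measured genes, both arm medians stayed below 0 under every alternative run, from -0.55 to -0.26 in the sterol arm and from -0.54 to -0.06 in the fatty acid arm. The sterol median itself was -0.35 without background correction, -0.56 with plain subtraction, -0.53 with processed signals, -0.37 without the filter and -0.59 in the deposited table. Centring each array on the median of its probes or on 10 spike-in probes moved the median of all measured genes to -0.49 and -0.81, the sterol median to -1.04 and -1.24 and the fatty acid median to -0.80 and -1.20. Over genes above background in both populations the fatty acid median was -0.018 and the difference of the arms -0.44. From 1 array alone the fatty acid median ranged from -0.41 to -0.21 and the difference of the arms from -0.27 to 0.01.

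The count of members lower in GFPhigh was 1, against 2.7% of all genes. It became 0 without background correction, against 1.86%, and over genes above background in both populations, against 2.23%. It was also 0 with the mean or the dimmest of a gene's kept probes, against 2.71% and 2.47%. It was 3 with plain subtraction (Idi1, Elovl6 and Me1) and with median centring (Hmgcs1, Elovl6 and Me1), where 3.57% and 2.62% of all genes were lower. It was 4 with processed signals and in the deposited table (Hmgcs1, Idi1, Elovl6 and Me1), against 6.51% and 6.47% of all genes. It was 14 with spike-in centring, against 20.0%, and 6 at 1.5-fold, against 7.5%. It was 2 from array 2 alone, against 5.47%, and 6 from array 1 alone, against 4.23%. The count higher in GFPhigh was 0 in each of these, against 0.122% to 5.59% of all genes. Over all genes, 138 were higher and 211 lower, against 10 and 215 with median centring and 21 and 1641 with spike-in centring. The cause of these shifts was not tested. Of 27 members with a mean below 0, 18 stayed below 0 under every alternative that measured them. Of 6 with a mean above 0, 3 (Srebf1, Insig1 and Acsl1) stayed above 0 under every alternative other than the 2 centrings. The centrings shifted the median of all genes downward and took these 3 below 0 in both. No paired analysis was possible because each population is 1 RNA pool. Dim signal limits Elovl6, Acsl3, Me1, Acat2, Mvk, Scd1 and Fads1, which were not above background in GFPhigh on at least 1 array. All of them are among the 18, but they have no value over genes above background in both populations. With both arrays and the filter, a mean above 0 would have left these genes unmeasured. Their steady sign was thus largely set by the filter, and the share of such genes over all genes was not counted.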

Other observations

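The steps up to squalene epoxidation and those after it differed in how steady they were, a split chosen after the values were seen. Of the 9 measured genes from Acat2 to Sqle, with a median of -0.54, 7 were below 0 on both arrays and 3 were lower by 1.5-fold on both. The shares over all measured genes were 36.6% and 7.5%. Of the 6 measured genes from Lss to Dhcr7, 2 were below 0 on both arrays, with a median of -0.28, and 4 had opposite signs, against 35.3% of all measured genes. Acat2 and Mvk, among the 7, were above background in GFPhigh on 1 array and passed the filter through GFPlow. All 6 later genes were above background in both populations. The part of the filter in this split was not tested.

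In the fatty acid arm, 10 of 12 ratios were higher on array 1 than on array 2, against 6 of 16 in the sterol arm and 55.3% of all measured genes. The dyes were exchanged between these arrays.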
